A study of Mus musculus with 3 samples.

Results

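The genes of the cytosolic chaperonin CCT and of the mitochondrial chaperonin were examined for peaks of MYC and of Flag-tagged POH1 in the mouse line Pan02, which was derived from a pancreatic ductal adenocarcinoma. The members were 10 named genes, 8 for CCT (Tcp1, Cct2, Cct3, Cct4, Cct5, Cct6a, Cct7 and Cct8) and 2 for the mitochondrial chaperonin (Hspd1 and Hspe1), out of 21887 protein-coding genes placed on chromosomes 1 to 19, X and Y. They were chosen by name, with earlier results of these data known. For each gene every deposited peak with its summit in the gene or within 5 kb of it was taken. Peaks came from CUT&Tag, an assay that tethers a transposase to an antibody so that DNA near the bound protein is fragmented and tagged. There were 3 libraries, 1 per group: an anti-Flag library of Pan02 cells stably expressing POH1-Flag, an anti-MYC library of the same kind of cells, and an anti-MYC library of Pan02 cells carrying the vector. POH1, encoded by Psmd14, is a deubiquitinase of the proteasome, and the series title presents it as a regulator of MYC. Which promoter drives POH1-Flag, and whether the cells are 1 clone, is not given in the sources used. None of the 3 libraries is an anti-Flag library of vector cells, so the Flag peaks had no library without the tag to be set against. Because each group is a single library, differences between the cell lines have no replicate error to be read against, and the intervals cover counting error only.

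Chaperonins are barrel-shaped complexes that enclose an unfolded protein and let it fold away from other proteins. CCT, also called TRiC, is built of stacked rings of different but related subunits and folds actin, tubulin and regulators of the cell cycle. HSP60, the product of Hspd1, forms the barrel in the mitochondrial matrix, and HSP10, the product of Hspe1, is its lid. MYC is a transcription factor that binds DNA with its partner MAX, preferably at E-box sequences, and drives genes of growth and protein synthesis. Several chaperonin genes belong to standard lists of MYC target genes.

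All 10 chaperonin genes carried a MYC peak near an end in both cell lines, and none carried a Flag peak there. The peaks lay at the 5′ end of every gene with an annotated strand, and most were higher and wider than the usual MYC peak at a gene end. At each site the pileup of POH1-Flag cells exceeded that of vector cells, by a factor close to the usual one for MYC sites at gene ends. Near an end means a summit within 1 kb of either end of the gene. In the MYC library of POH1-Flag cells 40.0% of all protein-coding genes had such a peak, in the MYC library of vector cells 28.2%, and in the Flag library 0.196%. The absence of Flag peaks from 10 genes is thus close to that background. Both MYC lists had a gene-end peak at all 10 genes, against 27.6% of all genes, and the peaks of the lists overlapped at all 10, against 27.0%.

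Depth was similar in the 3 libraries. The genome-wide background implied 4.06 reads per kb for Flag, 4.09 for MYC in POH1-Flag cells and 3.86 for MYC in vector cells. The lists held 2936, 22647 and 12175 peaks in the same order. Peak lists measure no expression, so the pancreatic cell type given in the labels could be looked at only through MYC peaks near marker genes. Of the marker genes, 3 of 8 ductal, 0 of 8 acinar, 0 of 5 fibroblast, 2 of 5 macrophage (Cd68 and Cd14) and 0 of 5 T cell genes had one in POH1-Flag cells. In vector cells the counts were 2 ductal, 0 acinar, 0 fibroblast, 1 macrophage and 0 T cell genes. Of all protein-coding genes, 40.0% had such a peak in POH1-Flag cells and 28.2% in vector cells. The ductal and macrophage counts were thus close to the share of all genes. The ductal genes with a MYC peak near an end in POH1-Flag cells were Muc1, Krt7 and Sox9, with 20, 12 and 10 reads. Muc1 and Sox9 also had one in vector cells, with 13 and 11 reads. Krt8, Krt18, Krt19, Epcam and Cdh1 had none in either cell line. The lists thus neither bear out nor contradict the labelled cell type.

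Among the CCT genes, Cct2, which encodes the beta subunit (chromosome 10, 117050997 to 117063852), had the highest pileup. The pileup is the number of reads that cover the summit once each read is extended to the fragment length. It stood at 79 reads in POH1-Flag cells and at 47 reads in vector cells. By the authors' −log10 q, 36.2 and 19.3, the peak was number 162 of 22647 in the POH1-Flag list and number 389 of 12175 in the vector list. The local background at Cct2 was 12.9 and 8.06 times the genome-wide one, against medians of 3.96 and 2.88 over the chaperonin sites. The authors' fold enrichment at Cct2 was 6.88 and 6.15. By fold the highest members were Tcp1 in POH1-Flag cells (10.84) and Hspd1 with Hspe1 in vector cells (7.93). The Cct2 summits lay 107 and 89 bp downstream of the 5′ end, inside the gene. Exons and introns were not used here.

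Cct3, for the gamma subunit (chromosome 3, 88297135 to 88321766), followed with 55 reads in POH1-Flag cells and 39 reads in vector cells. Its summits lay 330 and 349 bp upstream of the 5′ end, farther from it than those of any other member in either library. They were close to the start site of Tsacc, on the other strand, which encodes a cochaperone of a testis kinase. The nearest annotated Tsacc start site was 33 bp from the summit in POH1-Flag cells, so the peak cannot be assigned to Cct3 alone.

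Tcp1, the founding subunit (alpha) of CCT (chromosome 17, 12916329 to 12925067), had 44 reads in POH1-Flag cells and 19 reads in vector cells. The summits lay 38 bp upstream and 28 bp downstream of the 5′ end. In POH1-Flag cells Tcp1 stood above Cct6a, Cct7 and Cct5, and in vector cells it stood below them, with overlapping intervals in each library. Mrpl18, a gene of the mitochondrial ribosome on the other strand, has a start site 238 bp from that of Tcp1 and under the same peak.

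Cct6a, for the zeta subunit (chromosome 5, 129787356 to 129846443), had 40 reads in POH1-Flag cells and 23 reads in vector cells at its 5′ end. Cct7, for the eta subunit (chromosome 6, 85451505 to 85468477), had 38 reads in POH1-Flag cells and 24 reads in vector cells. Both peaks of POH1-Flag cells also covered the start of a gene on the other strand. These were Psph, which encodes the last enzyme of serine synthesis, at Cct6a and Pradc1 at Cct7. The Cct7 summits were 275 bp apart between the libraries, upstream of the 5′ end in POH1-Flag cells (205 bp) and downstream of it in vector cells (70 bp).

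In POH1-Flag cells the 3 lowest CCT sites were those of Cct5, Cct4 and Cct8, whereas in vector cells Tcp1 was below Cct5 by 1 read. Cct5, for the epsilon subunit (chromosome 15, 31590800 to 31601846), had 27 reads in POH1-Flag cells and 20 reads in vector cells. Cct4, for the delta subunit (chromosome 11, 22990593 to 23003336), had 22 reads in POH1-Flag cells and 12 reads in vector cells. Cct8, for the theta subunit (chromosome 16, 87483325 to 87495869), had 21 reads in POH1-Flag cells and 13 reads in vector cells. At these pileups the exact Poisson 95% intervals were wide, as at Cct8, with 13.0 to 32.1 reads in POH1-Flag cells and 6.92 to 22.2 reads in vector cells.

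Hspd1 (chromosome 1, 55077833 to 55088243) and Hspe1 (chromosome 1, 55088148 to 55091317) lie head to head and overlap by 96 bp, so both genes of the mitochondrial chaperonin shared a single peak. It had 53 reads in POH1-Flag cells and 38 reads in vector cells, below Cct2 and Cct3 and above the other 6 CCT sites in both libraries. The summit in POH1-Flag cells was 147 bp inside Hspd1 and 52 bp upstream of Hspe1. In vector cells it was 226 bp inside Hspd1 and 131 bp upstream of Hspe1. The 10 genes therefore give 9 sites, and the pair counts once in medians over sites.

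**Figure D1:**
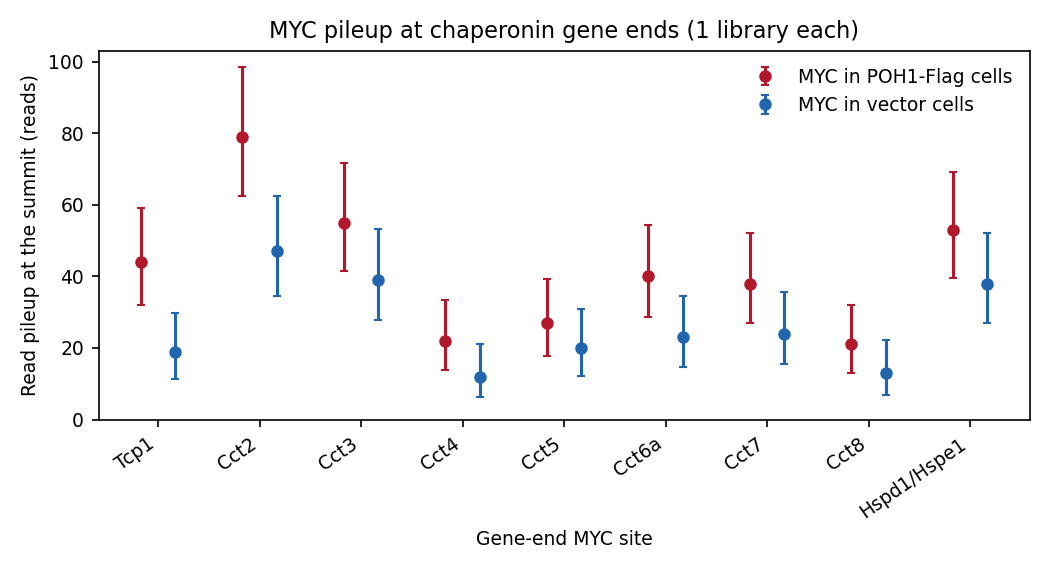
Read pileup at the summit (vertical axis, reads) of the 9 MYC sites of the chaperonin genes, with POH1-Flag cells in red and vector cells in blue; points are single libraries and bars are exact Poisson 95% intervals. The red point lies above the blue one at each site, and Cct2 is highest in both libraries, with 79 and 47 reads.

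Within the POH1-Flag library the interval of Cct2 (62.5 to 98.5 reads) lay above those of Tcp1, Cct6a, Cct7, Cct5, Cct4 and Cct8, and overlapped those of Cct3 and of the Hspd1 and Hspe1 site. Within the vector library the interval of Cct2 (34.5 to 62.5 reads) lay above those of Cct5, Tcp1, Cct8 and Cct4. Sites next to each other in the order had overlapping intervals in both libraries.

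Chaperonin peaks stood high among MYC peaks near gene ends. The median pileup over the 9 sites was 40 reads in POH1-Flag cells, where the median over all 7522 gene-end peaks was 21 and 91.2% of those peaks were below the chaperonin median. In vector cells the median was 23 reads, against 15 over all 5207 gene-end peaks, of which 81.0% were below it. The median −log10 q was 25.7 against 9.74 for all gene-end peaks in POH1-Flag cells, and 9.92 against 6.33 in vector cells. With a −log10 q of at least 10, all 10 genes kept a gene-end peak in POH1-Flag cells, against 20.1% of all genes. In vector cells 5 genes (Cct2, Cct3, Cct6a, Hspd1 and Hspe1) kept one, against 6.91% of all genes. The authors' fold enrichment ran from 6.55 to 10.84 over the chaperonin sites in the POH1-Flag list and from 5.78 to 7.93 in the vector list.

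Most chaperonin peaks were also wide. In POH1-Flag cells the width ran from 678 bp at Cct4 to 1354 bp at Hspd1 and Hspe1, with a median of 926 bp against 599 bp over all gene-end peaks. In vector cells it ran from 220 bp at Cct8 to 1196 bp at Cct7, with a median of 923 bp against 473 bp. The sites with the fewest reads, Cct4 and Cct8, were also the narrowest in vector cells, at 374 and 220 bp. The peak was wider in POH1-Flag cells at 6 of 9 sites, most at Cct8 (810 bp against 220 bp in vector cells), and narrower at Tcp1 (926 bp against 1011 bp), Cct2 (1057 bp against 1077 bp) and Cct3 (901 bp against 923 bp). Of the gene-end sites that the MYC lists shared away from Flag peaks, 86.2% were wider in POH1-Flag cells.

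**Figure D2:**
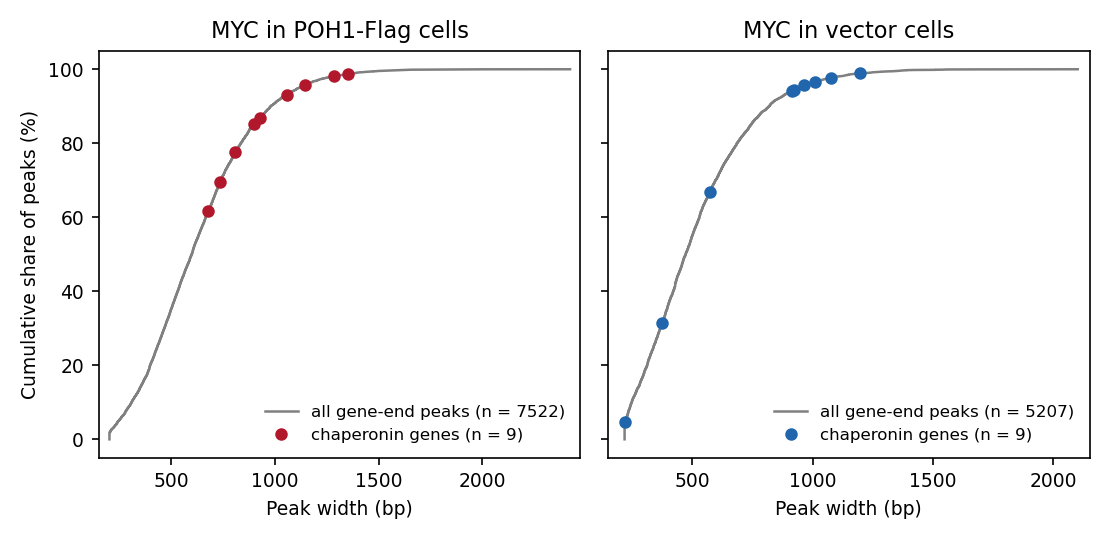
Cumulative share of gene-end MYC peaks (vertical axis, %) by peak width (horizontal axis, bp) in POH1-Flag cells (left) and vector cells (right); the grey line is all gene-end peaks and the dots are the 9 chaperonin sites. Most dots lie in the upper part of the curve, with medians of 926 and 923 bp, while Cct4 and Cct8 lie low in vector cells.

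Peak position was close to the gene's start. At the 9 genes with an annotated strand, the gene-end peak lay at the 5′ end in both libraries, against 95.9% of all genes with a strand and a gene-end peak in POH1-Flag cells and 96.0% in vector cells. Cct4 is given from its lower coordinate end, with summits 75 and 67 bp outside the gene. The distance from summit to gene end had a median of 127 bp over the 10 genes in POH1-Flag cells and 130 bp in vector cells, against 138 and 154 bp over all genes with a gene-end peak. Summits of the 2 libraries were at most 100 bp apart at 7 of 9 sites, with Cct7 and Cct8 (210 bp) as the exceptions, against 63.2% of the gene-end sites shared by the MYC lists away from Flag peaks. In distance from the gene end, the chaperonin peaks were thus close to MYC peaks in general.

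**Figure D3:**
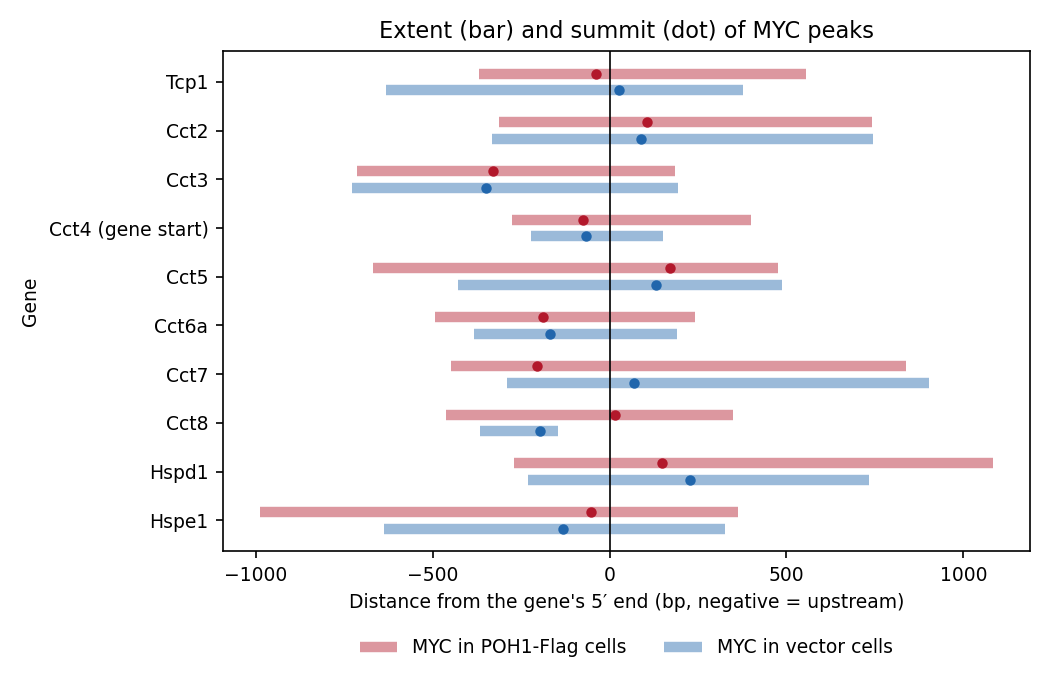
Extent (bar) and summit (dot) of the gene-end MYC peak of each chaperonin gene, as distance from the 5′ end in the direction of transcription (horizontal axis, bp, negative values upstream; Cct4 from its lower coordinate end), with POH1-Flag cells in red above vector cells in blue. The bars reach across the gene start except for Cct8 in vector cells, whose 220 bp peak lies upstream with its summit at 196 bp.

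Chaperonin genes often had a neighbour that starts on the other strand beside them. Another protein-coding gene on the other strand had a start site within 1 kb at 7 of the 9 genes with a strand, against 9.61% of 17492 genes. The start sites were 238 bp apart for Tcp1 and Mrpl18, 136 bp for Cct3 and Tsacc, 270 bp for Cct5 and Atpsckmt (a methyltransferase for mitochondrial ATP synthase), 103 bp for Cct6a and Psph, 203 bp for Cct7 and Pradc1, and 95 bp for Hspd1 and Hspe1. At Cct8 the neighbour was the long noncoding RNA gene B130034C11Rik, 204 bp away. No such neighbour was annotated at Cct2, which had the highest pileup. Genes with such a neighbour carried a gene-end MYC peak more often than all genes, 86.7% in POH1-Flag cells and 69.1% in vector cells. Their median peak width was 707 bp in POH1-Flag cells and 549 bp in vector cells, against 596 and 465 bp for genes without one. In these shares and widths, a peak within 1 kb of an end of both neighbours counts for each gene. The shares can be higher for that reason, and by how much was not tested. The part of the paired arrangement in the height and width of the chaperonin peaks was not tested.

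Promoter sequences of 300 bases, from 250 bases before to 50 bases after a start site (RefSeq, GRCm38.p6), were matched for 9 of the 10 genes, all but Cct4, with 12 windows in all. First of the windows that follow are those on both sides of the shared Hspd1 and Hspe1 start, where the peaks of both libraries cover the E-boxes. Next is the window of Cct3, whose E-box is a variant. The last is that of Tcp1, which holds no E-box of the searched forms, as is also the case for Cct6a, Cct7 and Cct8. It was picked for its pileup ratio, the highest of the members, and a link of E-boxes to that ratio was not tested. Capitals mark the E-box CACGTG or its variants with the letters CACGCG and the letters CACATG, read on either strand.
Hspe1, chr1:55087898-55088197, plus strand: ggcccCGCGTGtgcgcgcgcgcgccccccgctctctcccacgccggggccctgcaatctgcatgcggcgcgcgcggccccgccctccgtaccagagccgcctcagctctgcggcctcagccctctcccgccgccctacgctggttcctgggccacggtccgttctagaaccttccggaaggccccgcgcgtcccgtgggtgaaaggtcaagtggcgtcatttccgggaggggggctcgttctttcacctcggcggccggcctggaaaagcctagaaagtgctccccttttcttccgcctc
Hspd1, chr1:55088194-55088493, minus strand: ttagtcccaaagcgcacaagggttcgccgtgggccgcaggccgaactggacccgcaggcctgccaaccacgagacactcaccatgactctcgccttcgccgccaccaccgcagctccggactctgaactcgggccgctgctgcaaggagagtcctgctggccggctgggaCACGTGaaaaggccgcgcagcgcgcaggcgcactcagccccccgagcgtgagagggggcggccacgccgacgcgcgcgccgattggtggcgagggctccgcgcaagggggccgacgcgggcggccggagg
Cct3, chr3:88296885-88297184, plus strand: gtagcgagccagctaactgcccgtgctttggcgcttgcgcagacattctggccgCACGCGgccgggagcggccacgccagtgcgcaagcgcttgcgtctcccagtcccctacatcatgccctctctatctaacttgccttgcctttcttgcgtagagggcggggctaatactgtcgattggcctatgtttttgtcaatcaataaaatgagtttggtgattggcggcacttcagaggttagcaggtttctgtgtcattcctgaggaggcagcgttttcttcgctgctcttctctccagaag
Tcp1, chr17:12916079-12916378, plus strand: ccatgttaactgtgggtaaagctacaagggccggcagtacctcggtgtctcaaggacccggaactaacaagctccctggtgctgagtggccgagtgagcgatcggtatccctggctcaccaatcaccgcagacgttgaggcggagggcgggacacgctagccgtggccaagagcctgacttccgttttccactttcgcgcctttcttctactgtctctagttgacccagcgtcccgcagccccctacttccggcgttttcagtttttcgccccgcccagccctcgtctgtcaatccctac
The canonical E-box CACGTG was present in 1 of the 12 chaperonin windows, at Hspd1, against 7.84% of 21263 promoter windows of protein-coding genes and 11.8% of the windows of genes with a shared MYC site. It lay 224 bp from the summit in POH1-Flag cells and 304 bp from the summit in vector cells. The variant CACGCG was found in 3 of the 12 windows, at Cct3 and at one position inside Hspd1 and upstream of Hspe1 that falls in windows of both, against 12.1% of all windows and 20.9% of those of genes with a shared MYC site. At Cct3 it was 136 bp from the summit in POH1-Flag cells and 156 bp in vector cells. CACATG was found in 2 of the 12 windows, at Cct2 and Cct5, against 11.5% of all windows. It was in 7.55% of those of genes with a shared MYC site and in 14.2% of those of genes without a MYC peak.

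The GC-rich box GGGCGG, a motif of SP1-type factors, was present in 11 of the 12 windows, with at least 1 window of each of the 9 genes, against 46.2% of all windows and 68.7% of those of genes with a shared MYC site. The inverted repeat GAANNTTC of the heat shock element was found in 3 of the 12 windows, at Cct2 and at one position shared by Hspd1 and Hspe1, against 7.21% of all windows and 5.64% of those of genes with a shared MYC site. At Hspd1 and Hspe1 it was 28 bp from the summit in POH1-Flag cells and 50 bp in vector cells, nearer than any E-box of that site. The palindromic core of the NRF1 motif, a factor for genes of mitochondria, was found in 1 of the 12 windows, at Cct5, against 1.33% of all windows and 2.47% of those of genes with a shared MYC site. Motifs were searched on both strands, and none of the 31 distinct matches overlapped a match to another motif. The peaks of POH1-Flag cells covered all 31 and those of vector cells 30, the exception being the GGGCGG of Cct8. Windows and peaks both lie at gene starts, so such coverage follows largely from the choice of peaks. It was not computed for other genes. The median GC content was 63.5% over the 12 chaperonin windows, against 56.3% over all windows and 62.3% over those of genes with a shared MYC site. A match is a description of the letters, and sequence outside the windows was not used here.

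The comparison of MYC in POH1-Flag cells with MYC in vector cells asked whether pileups at the chaperonin genes differed when POH1-Flag was present. Pileups were scaled by the genome-wide background of their own library, and ratios carry exact conditional Poisson 95% intervals. Tcp1 had 44 reads in POH1-Flag cells and 19 reads in vector cells, a ratio of 2.37 (1.35 to 4.3). The ratio was 1.72 (1.18 to 2.52) at Cct2 and 1.78 (1.04 to 3.11) at Cct6a. The intervals of these 3 sites lay above 1. At the other 6 sites the interval held 1, with ratios of 1.88 (0.889 to 4.16) at Cct4, 1.65 (0.79 to 3.59) at Cct8, 1.62 (0.947 to 2.82) at Cct7, 1.44 (0.94 to 2.23) at Cct3, 1.43 (0.923 to 2.22) at Hspd1 and Hspe1, and 1.38 (0.746 to 2.6) at Cct5. A difference at a single one of these sites was not detectable from the summit pileup at this depth.

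All 9 ratios were above 1, as were those of 98.4% of the 4981 gene-end sites that both MYC lists held and no Flag peak touched. By gene, 0 of 10 had a ratio below 1, against 1.51%. The median over the 9 sites was 1.65 and the median over the 4981 sites was also 1.65. Each of the 9 intervals held that value. Summed over the 9 sites there were 379 reads in POH1-Flag cells and 235 reads in vector cells, a ratio of 1.65 (1.4 to 1.95). For the 8 CCT sites alone it was 1.69 (1.41 to 2.03). A ratio of at least 1.5 was reached by 6 of the 10 genes, against 66.5% of 5911 genes with a shared site, and an interval above 1 by 3 of 10, against 26.0%. The chaperonin genes thus stood near the background in this comparison. Summit pileups are the highest point of each peak, so their ratios are not those of fixed positions.

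A second readout with more reads came from the local background. At peaks above the genome-wide background it corresponded to whole reads in the 10 kb around the summit, for 100% of 21049 peaks of MYC in POH1-Flag cells and 100% of 11876 peaks of MYC in vector cells, within 0.05 of a read. Cct2 had 526 reads per 10 kb in POH1-Flag cells and 311 reads in vector cells. The genome-wide background would give 40.9 and 38.6 reads. Hspd1 and Hspe1 had 312 reads in POH1-Flag cells and 179 reads in vector cells, and Cct3 had 312 reads in POH1-Flag cells and 209 reads in vector cells. These 3 sites stood highest in both libraries. At the lower end, Cct8 had 91 reads in POH1-Flag cells and 58 reads in vector cells, and Cct4 had 99 reads in POH1-Flag cells and 57 reads in vector cells. The window holds the reads of the peak itself, so this readout is not independent of the summit pileup. It lies around each library's own summit and also holds reads of neighbouring sites. At Cct2 no other MYC peak was listed within 5 kb of the gene.

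Scaled for depth, the ratio of 10 kb reads was above 1 with its whole interval at all 9 sites, as at 84.0% of 5836 genes with a shared site above background. It ran from 1.33 (1.04 to 1.72) at Cct6a to 1.67 (1.28 to 2.2) at Tcp1. At Cct2 it was 1.6 (1.38 to 1.84), at Hspd1 and Hspe1 1.65 (1.36 to 1.99), and at Cct3 1.41 (1.18 to 1.69). The sum was 2060 reads in POH1-Flag cells and 1258 reads in vector cells, a ratio of 1.55 (1.44 to 1.66). The median was 1.57 over the 9 sites, against 1.58 over the 4920 comparable sites away from Flag peaks, a value that each of the 9 intervals held. A ratio of at least 1.5 was reached by 7 of the 10 genes (Tcp1, Cct2, Cct4, Cct5, Cct7, Hspd1 and Hspe1), against 63.3% of genes. The sites thus had more MYC reads in the POH1-Flag library by a factor that did not stand apart from other gene-end MYC sites. With 1 library per cell line, the cell line and the library cannot be told apart as the source of that general factor.

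**Figure D4:**
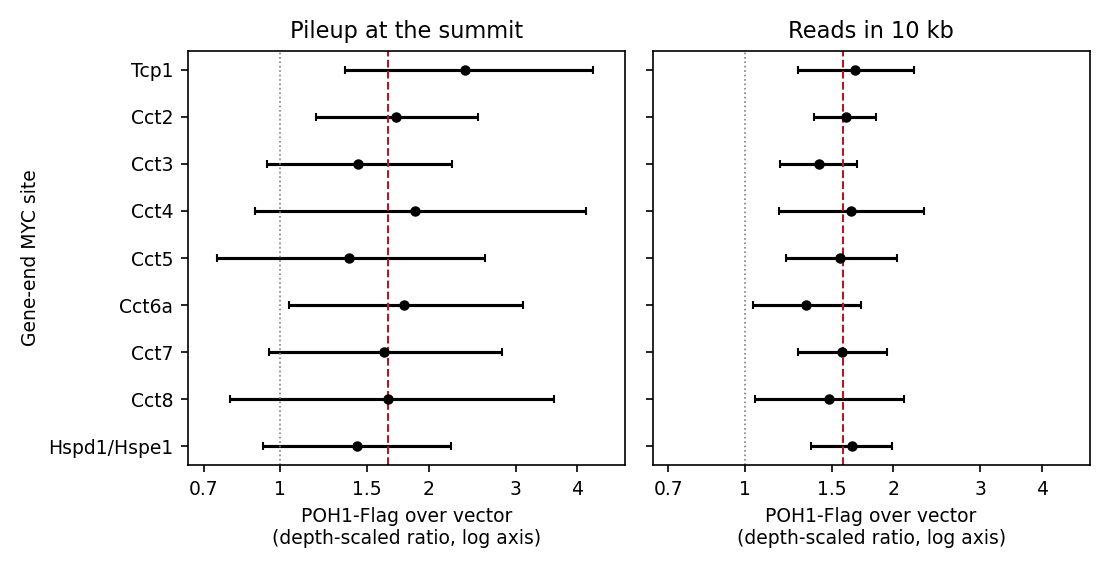
Ratio of POH1-Flag to vector cells (horizontal axis, scaled for depth, log axis) at the 9 chaperonin MYC sites, from summit pileups (left) and from reads in 10 kb around the summit (right), with exact conditional Poisson 95% intervals. The dotted line marks 1 and the dashed red line the median of gene-end MYC sites shared away from Flag peaks, 1.65 on the left and 1.58 on the right, which each interval holds.

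Flag peaks of POH1-Flag cells were compared with MYC peaks of the same cells to see whether they met at the chaperonin genes. At none of the 10 genes did the gene-end MYC peak overlap a Flag peak, against 0.297% of 8755 genes with a gene-end MYC peak in these cells. Within 5 kb, 1 gene had a Flag peak, Cct5, against 4.27% of all genes. That peak had 9 reads (exact Poisson 95% interval 4.12 to 17.1), the smallest width of its list (233 bp) and a −log10 q of 3.0. Its summit was 3811 bp beyond the 5′ end of Cct5, inside Atpsckmt. The nearest Flag summit was 6.22 kb from Hspe1, 9.3 kb from Hspd1, 13.6 kb from Cct8 and 55.3 kb from Cct7. For Tcp1, Cct2, Cct3, Cct4 and Cct6a it was between 172 and 1204 kb away. Both the count and the share of all genes were near 0, so the lists give no contrast between the chaperonin genes and the rest for Flag.

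A few MYC peaks lay near the members but away from their starts. At the 3′ end of the annotated Cct6a, a second peak with 14 reads in POH1-Flag cells and 12 reads in vector cells covered the start of Sumf2, which encodes a relative of the sulfatase-modifying enzyme. Beyond Cct4, inside Fam161a, a peak with 12 reads in POH1-Flag cells lay 4347 bp from the gene, and one with 9 reads in vector cells lay 4912 bp from it, without overlap. No member had a MYC or Flag summit in its interior beyond 1 kb from an end. The share of all genes with such a summit was not computed, so whether this is unusual cannot be told. With the gene and 5 kb around it counted, all 10 genes had a MYC peak in each cell line, against 55.6% of all genes in POH1-Flag cells and 40.3% in vector cells.

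Genes that work with the chaperonins were described by counts, to be read against the same 40.0% and 28.2% of all genes. Of 10 partners of CCT, among them the prefoldin subunits that hand over unfolded actin and tubulin, 7 had a gene-end MYC peak in POH1-Flag cells and 5 in vector cells. By pileup in POH1-Flag cells the highest were Txndc9, a thioredoxin-like regulator of CCT (36 reads in POH1-Flag cells and 22 in vector cells), the prefoldin gene Pfdn6 (29 and 15 reads in the same order) and the phosducin-like gene Pdcl3 (26 and 12 reads). Their ratios were 1.67 (0.959 to 2.99), 1.98 (1.03 to 3.97) and 2.22 (1.08 to 4.82). The prefoldin genes Pfdn1, Pfdn2 and Vbp1 had a peak near an end in POH1-Flag cells only, with 9, 22 and 7 reads. The phosducin-like gene Pdcl had one in vector cells only, with 19 reads, more than Pfdn6 or Pdcl3 had there.

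Of 10 genes of mitochondrial protein folding and quality control, 10 had a gene-end MYC peak in POH1-Flag cells and 9 in vector cells. By pileup in POH1-Flag cells the highest were Hspa9, the HSP70 of the matrix (63 reads in POH1-Flag cells and 45 in vector cells), the protease gene Htra2 (41 and 24 reads) and Lonp1, for the matrix protease that removes misfolded proteins (36 and 12 reads). In vector cells Dnaja3, for a partner of the matrix HSP70, came after Hspa9 with 32 reads, the same number as in POH1-Flag cells, while Lonp1 was among the lowest. The ratio was 1.43 (0.962 to 2.15) at Hspa9, 1.75 (1.03 to 3.02) at Htra2 and 3.07 (1.56 to 6.48) at Lonp1. It was 1.02 (0.607 to 1.72) at Dnaja3 and 0.843 (0.385 to 1.82) at Clpx, which had 14 reads in POH1-Flag cells and 17 reads in vector cells. Genes named for a high pileup in POH1-Flag cells are, by that choice, more likely to have a high ratio. Hspa9 was thus the one gene of this list with more reads than the Hspd1 and Hspe1 site in both libraries. All 10 cytosolic heat shock chaperone genes had a peak in both cell lines, led in POH1-Flag cells by Hspa8 (49 and 34 reads), the HSP70 family gene Hsph1 (46 and 26 reads), and Stip1 and Hsp90aa1 with 44 reads each in POH1-Flag cells and 24 and 26 reads in vector cells. In vector cells St13, for a cochaperone of HSP70, came after Hspa8 with 27 reads, against 36 reads in POH1-Flag cells. Median ratios at shared sites were 1.65 over 8 mitochondrial genes, 1.73 over 10 cytosolic genes, 1.81 over 7 CCT clients, 1.83 over 4 CCT partners and 1.9 over 3 chaperonin relatives, beside the 1.65 of all shared sites.

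Of 10 folding clients of CCT, 8 had a gene-end MYC peak in POH1-Flag cells and 8 in vector cells. The tubulin genes Tubb4b (56 reads in POH1-Flag cells and 40 in vector cells), Tuba1c (43 and 23 reads) and Tuba1b (41 and 29 reads) were highest in POH1-Flag cells. The actin gene Actg1 had 25 reads in POH1-Flag cells and 24 reads in vector cells, more than Tuba1c in vector cells. Cdc20, a cell cycle regulator, had a peak in POH1-Flag cells only, with 24 reads, and the tubulin gene Tubb5 in vector cells only, with 14 reads. Actb, for cytoplasmic actin, had none in either cell line. Among the relatives of the chaperonin subunits, the paralog Cct6b had 13 reads in POH1-Flag cells and 7 reads in vector cells, fewer than Cct6a in both. Mkks, a chaperonin-like gene mutated in ciliopathy, had 28 reads in POH1-Flag cells and 23 reads in vector cells, and Bbs10 had 26 reads in POH1-Flag cells and 14 reads in vector cells. Bbs12 had a peak of 19 reads in POH1-Flag cells only, and Cct8l1 had none in either. No gene of these lists had a Flag peak near an end.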

How the data were processed

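Peak lists of 3 CUT&Tag libraries were analysed. Per the submitters' processing notes, the tools were MACS2 2.2.7.1, BWA 0.7.17-r1188, Trim Galore 0.6.6 and FastQC 0.11.9, and the build was GRCm38/mm10, with no role stated. Whether a control library was used or duplicates were removed is not given in the sources used. The authors deposited, per peak, a linear ratio (fold enrichment), −log10 p and −log10 q at the summit and a score that was not used, with 1 list per library.

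Each peak's fold, (k + 1)/(λ + 1), and its p, the Poisson probability of more than k reads, were solved together for the whole pileup k and local background λ (scipy 1.17.1), within 0.01 of a read step for 100% of peaks. The lowest λ was the genome-wide background (0.946 in the Flag list, 0.826 in the POH1-Flag MYC list and 0.845 in the vector MYC list), and the smallest width (233, 202 and 219 bp) the fragment length. Reads in 10 kb are λ × 10000 divided by that length. These reads came out whole at 100% of the peaks above the genome-wide background in each list. The background was therefore taken to come from the library itself, so that a broad peak raises its own background and lowers its fold. Kept duplicates would make the intervals too narrow. Total reads are unknown.

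Genes and promoters came from RefSeq tables of GRCm38.p6. Overlap meant 1 bp or more. For genes with several gene-end peaks, the highest stood for the gene. The text names all members, neighbours that share their peaks, and up to 3 of the highest genes per related list, with ties. Prefoldin genes other than Pfdn6, and Pdcl, Dnaja3, Clpx, St13, Actg1, Actb, Cdc20, Tubb5, Cct6b, Cct8l1 and the marker genes were named after their values were seen. Members, lists and choices were made with earlier results of these data known. The solving of pileups and the ratio intervals were tested on simulated data, and the other steps were not. The readout of reads in 10 kb and the subtraction of local background were added after the peaks had been seen.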

Additional observations from a re-analysis of the deposited data

How the results depend on the processing

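No paired analysis was possible because each group has 1 library, and for the same reason no library could be left out. The count of 10 genes with a gene-end MYC peak was the same in POH1-Flag cells at a −log10 q of at least 5 or 10, at a fold of at least 5, with summits within 500 bp, with any base of the peak within 1 kb, and with 5 kb around the gene. In vector cells it was 10 under each of these except a −log10 q of at least 10, where it was 5, because the peaks of Tcp1, Cct4, Cct5, Cct7 and Cct8 lie below that limit. Of all genes in POH1-Flag cells, 33.9% and 20.1% passed at a −log10 q of at least 5 and 10, and 30.9% at the fold limit. In vector cells these shares were 18.9%, 6.91% and 19.7%. No share of all genes was computed for summits within 500 bp or for any base of the peak. The Flag count of 0 became 1 with 5 kb around the gene (Cct5), and the count of MYC peaks that meet a Flag peak stayed at 0 with summits within 500 bp. The median ratio over the 9 sites, 1.65 with POH1-Flag over vector, was 1.62 without scaling, 1.52 scaled by reads per kb, 1.67 with 50% mutual overlap (Cct8 lost), 1.65 with the nearest peak, 1.57 from reads in 10 kb and 1.67 after subtraction of the local background. It was 1.0 when ratios were divided by the median of all shared gene-end sites, by construction relative to those sites, and then no site's interval lay above 1. Scaled by reads per kb, the interval of Cct6a held 1 (1.64, 0.959 to 2.87). Pileups of 12 to 24 reads, as at most vector sites, limit what a single site can show.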

Other observations

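Of 44 annotated pseudogenes named after the members, such as the copies of Hspd1 and Tcp1, none was touched by a peak in the Flag library, in the MYC library of POH1-Flag cells or in the MYC library of vector cells. The share of all pseudogenes touched by a peak was not computed, so whether this count is unusual cannot be told.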
